A study of Drosophila melanogaster with 8 samples.

Results

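The stage 16 comparison asked which transcripts differed in whole Drosophila embryos when the transcription factor DIMMED, encoded by dimm, was placed in all neurons. It rests on 4 Affymetrix Drosophila Genome 2.0 arrays of the 8 in the series, 2 of dimm embryos and 2 of control embryos, paired by their replicate number. The dimm embryos had the genotype w;UAS-dimm2A3/+;elav-GAL4/+, which holds a single UAS transgene of myc-tagged dimm together with a single elav-GAL4 driver, GAL4 under the promoter of the neuronal gene elav. The control embryos were w;;elav-GAL4, the maternal driver line, so they carried no UAS transgene, and the genotypes also differ in GAL4 dose and in the paternal chromosomes. Both were stage 16 embryos of 28 to 32 h, dechorionated, from parents reared at 25 °C with crosses and egg collections at 18 °C. The other 4 arrays hold the same genotypes at stage 14 and are used here as a second time point. For stage 14 the labels give 22 to 26 h, whereas the series text gives a start of 24 h. Of 18769 probe sets that are not controls, the 7712 with a log2 signal above 4 on at least 2 of the 4 stage 16 arrays were compared, and they represented 6442 genes. At that limit CG17111 lay just inside with a second highest signal of 4.001, and CG6951 just outside with 3.9999.

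The DIMMED protein, of the basic helix-loop-helix class, marks peptide-secreting neuroendocrine cells. Such cells cut neuropeptides out of larger precursors with prohormone convertases, amidate many of them at the C terminus, and store them in dense core vesicles that are released on a calcium signal. In the fly embryo only scattered neurons express dimm, whereas elav-GAL4 is active in neurons in general.

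Signals are log2 GCRMA values, a scale on which 1 unit is a 2-fold difference. The lowest value was 2.186 on each of the 4 stage 16 arrays, held by 38.5% to 38.9% of probe sets, and a signal there is background. In replicate 1 of each genotype the 5' ends of control transcripts were dim: the 3' minus 5' difference for actin was 8.0 in dimm replicate 1 and 4.48 in dimm replicate 2, against 8.69 in control replicate 1 and 3.73 in control replicate 2. At stage 16 the replicate deviations of the dimm arrays followed those of the same-numbered control arrays, with a correlation of 0.915 over probe sets. Differences were therefore taken within pairs, and across probe sets, which share arrays and are not independent replicates, pair 1 and pair 2 correlated at 0.624 (Pearson) and 0.487 (Spearman). Whether the 2 arrays of a group came from separate RNA samples is not clear from the series text, and the p-values cover array spread that may be technical only. Whole embryo RNA held neuronal, glial, muscle and epidermal transcripts together, among them elav, the glial gene repo, the myosin light chain gene Mlc2 and the chitin synthase gene kkv, all above 9 on each array.

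**Figure D1:**
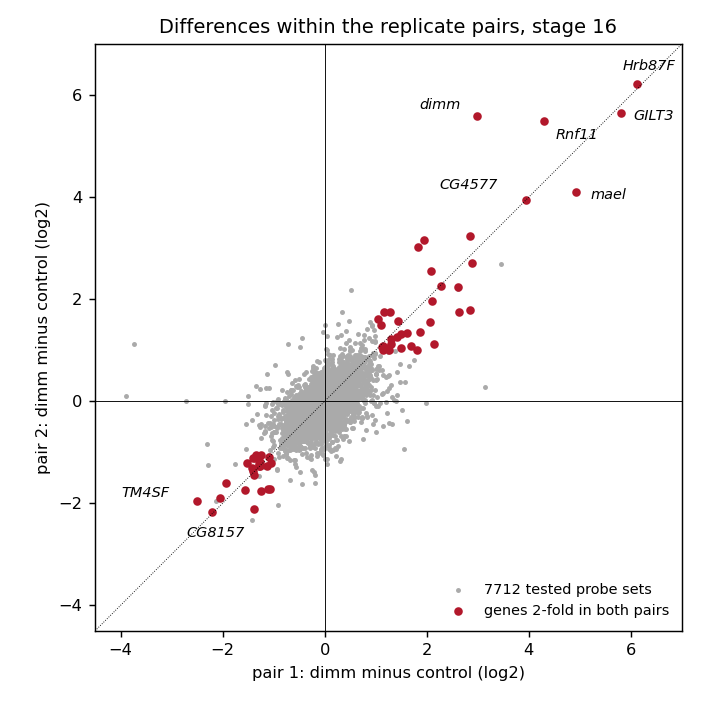
Log2 difference between dimm and control embryos in replicate pair 1 (x axis) and in pair 2 (y axis) for the 7712 tested probe sets at stage 16 (grey), with the 61 genes that differed at least 2-fold in both pairs in red. Most probe sets lie near 0, and Hrb87F, GILT3, CG4577, Rnf11, mael and dimm lie far out in the upper right in both pairs.

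The transgene's own gene was high in both dimm arrays, to unequal levels. The dimm signal was 5.51 and 8.26 in dimm embryos (replicates 1 and 2), against 2.53 and 2.68 in control embryos, so the groups did not overlap and both control arrays lay near the lowest value. The difference was 4.28 ± 0.76 (SE, log2, 2 pairs), 19.4-fold, with an adjusted p of 0.194 in limma. It was 5.58 without the replicate 1 arrays and 2.98 without the replicate 2 arrays, and 2.89 with signals below 4 raised to 4. A second limma fit, over all 8 arrays and blocked by replicate number within stage, gave dimm an adjusted p of 0.045. elav itself had 11.56 and 11.67 in dimm embryos, against 11.51 and 11.63 in control embryos, a difference of 0.05 ± 0.07.

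In all, 3 genes passed in the fit of the 4 arrays, all of them higher in dimm embryos. Hrb87F, which encodes an hnRNP A/B family RNA-binding protein, had a signal of 11.33 and 11.46 in dimm embryos, against 5.20 and 5.25 in control embryos. It rose by 6.17 ± 0.08 (SE, log2, 2 pairs), 72.0-fold, with an adjusted p of 0.0333 in limma. GILT3, of the gamma-interferon-inducible lysosomal thiol reductase family, had 8.78 and 8.66 in dimm embryos, against 2.98 and 3.01 in control embryos. It rose by 5.73 ± 0.08 (adjusted p = 0.0333 in limma), and by 4.72 with signals below 4 raised to 4, since its control arrays lay near background. CG4577 had 9.20 and 9.39 in dimm embryos, against 5.26 and 5.45 in control embryos, and rose by 3.94 ± 0.07 (adjusted p = 0.0406 in limma). Its adjusted p was 0.176 in limma with no replicate block.

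These 3 were 0.0389% of the 7712 probe sets tested, or 0.0466% of the genes, and 0 were lower (0.0%). By an unadjusted p under 0.05, 631 were higher (8.18%) and 785 lower (10.2%). With no replicate block 2 probe sets passed, Hrb87F and GILT3, both higher (0.0259%), and leaving out any single stage 16 array, which also ends the pairing, left 0. The fit of 2 pairs has 1 residual degree of freedom. The 8-array fit, which pools the residual spread of both stages, called 191 probe sets higher (2.48%) and 199 lower (2.58%). The 2 pair differences of a probe set lay a median of 0.158 apart at stage 16 and 0.107 at stage 14. The SD of that gap over probe sets was 0.33 and 0.343. Stage 16 calls in the 8-array fit thus rest in part on the spread at stage 14. Of these 390, 308 had dimm arrays that did not overlap the control arrays, and 176 (45.1%) also passed without the replicate 1 arrays, where 458 passed in all (5.94%). Below, a gene said to pass in the 8-array fit did not pass in the fit of the 4 arrays unless it is one of the 3 above.

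Size and agreement of the pairs were counted as well. By this measure 37 genes were at least 2-fold higher in dimm embryos in both pairs (0.574% of genes) and 24 at least 2-fold lower (0.373%). The higher ones had a median difference of 1.62 and the lower ones of 1.37 in size. In the 8-array fit 31 of the 37 and 22 of the 24 passed (2.51% of all genes were higher and 2.48% lower). The arrays did not overlap in 34 and 22 of them (10.1% and 12.9% of all genes). Both counts use the arrays on which the genes were chosen, so they are no separate support.

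**Figure D2:**
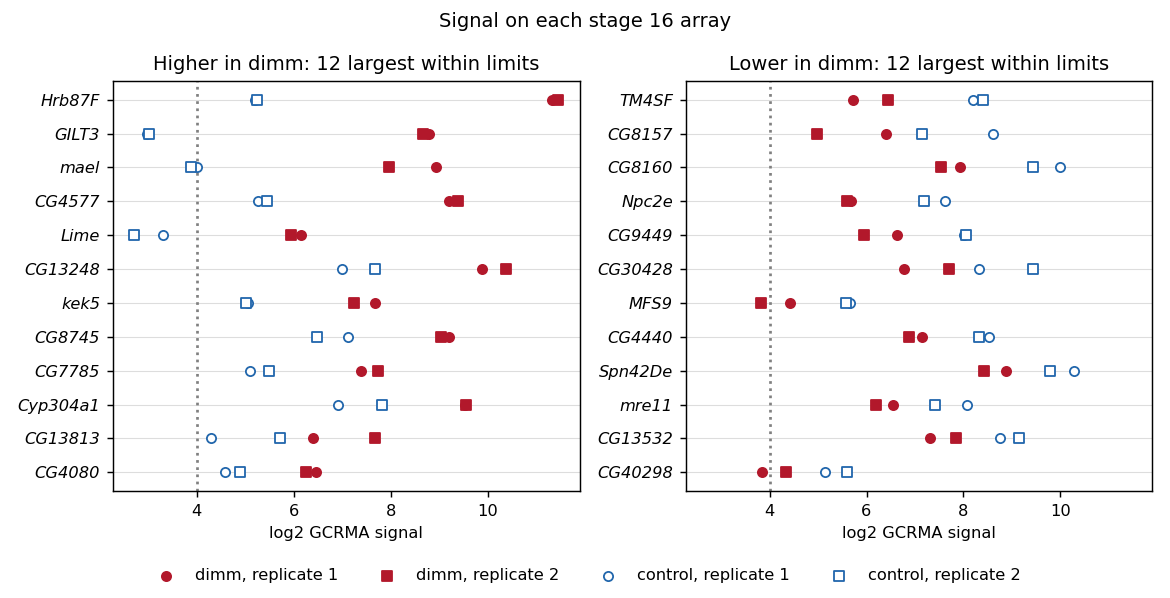
Log2 GCRMA signal of each stage 16 array (x axis) for the 12 largest differences upward (left) and downward (right) among genes whose arrays did not overlap, with a group mean above 5 and pair differences within 1 unit, with dimm arrays filled and control arrays open, replicate 1 as circles and replicate 2 as squares; the dotted line marks the filter at 4. In all 24 genes both dimm arrays lie on the same side of both control arrays, and in CG8157, CG13813 and CG30428 the replicates of each genotype also lie well apart.

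Further large differences upward were taken among genes whose arrays did not overlap, with a group mean above 5 and pair differences within 1 unit of each other. Beside Hrb87F, GILT3 and CG4577 these were mael, Lime, CG13248, kek5, CG8745, CG7785, Cyp304a1, CG13813 and CG4080, and each passed in the 8-array fit. The limits leave out Rnf11 (4.89), dimm (4.28), Pal2 (2.55), eIF4E3 (2.42), CG32073 (2.32), Cyp9c1 (1.80) and Rph (1.63), whose arrays did not overlap either. They also leave out Idh3g (1.71), whose arrays overlapped. mael, which encodes Maelstrom of the piRNA pathway that silences transposons in the germline, had 8.93 and 7.97 in dimm embryos, against 3.996 and 3.87 in control embryos. The difference was 4.51 ± 0.25, 22.9-fold (8-array adjusted p = 0.0147 in limma). CG13248, a cationic amino acid transporter gene, had 9.88 and 10.38 in dimm embryos, against 6.997 and 7.67 in control embryos, a difference of 2.79 ± 0.09 (8-array adjusted p = 0.0049 in limma). Both thus had dimm arrays well above the control arrays, whichever replicate was taken.

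Lime, a zinc finger gene of blood cells and metabolism, had 6.15 and 5.95 in dimm embryos, against 3.30 and 2.71 in control embryos. Its difference was 3.05 ± 0.14, and 2.05 with signals below 4 raised to 4. kek5, a Kekkon family gene for a transmembrane protein with leucine-rich repeats, had 7.67 and 7.25 in dimm embryos, against 5.05 and 5.02 in control embryos, a difference of 2.42 ± 0.13. Cyp304a1, a cytochrome P450 gene, had 9.54 and 9.56 in dimm embryos, against 6.91 and 7.81 in control embryos, a difference of 2.19 ± 0.27. Here the spread lay in the control arrays, and the difference was 1.74 in pair 2 alone.

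The other 4 differed by 2.32 ± 0.15 (CG8745), 2.27 ± 0.07 (CG7785), 2.04 ± 0.08 (CG13813) and 1.62 ± 0.17 (CG4080). CG13813 shows what the pairing does: it had 6.41 and 7.67 in dimm embryos, against 4.30 and 5.71 in control embryos, so the replicates of each genotype were more than 1 unit apart while the pairs differed by 2.11 and 1.96.

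Lower signals in dimm embryos were smaller in size. Under the same limits the 12 largest ran from -2.22 to -1.28 and passed in the 8-array fit, and none of them passed in the fit of the 4 arrays. The limits leave out Hsp26 (-1.90), CG11825 (-1.58), Cbp53E (-1.47), Cyp6a16 (-1.41) and CG13705 (-1.40), of which Cyp6a16 passed in the 8-array fit. TM4SF, a tetraspanin gene, had 5.71 and 6.45 in dimm embryos, against 8.21 and 8.40 in control embryos. That is 0.214 of the control level, a difference of -2.22 ± 0.17 (8-array adjusted p = 0.0178 in limma). CG8157 had 6.39 and 4.98 in dimm embryos, against 8.60 and 7.14 in control embryos (-2.19 ± 0.07). CG8160, its neighbour among the tested genes on chromosome arm 2R, had 7.93 and 7.54 in dimm embryos, against 9.99 and 9.43 in control embryos (-1.97 ± 0.09). Both neighbours were thus lower by nearly the same amount in each pair.

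Npc2e, a gene of the NPC2 family of sterol-binding proteins, had 5.68 and 5.59 in dimm embryos, against 7.62 and 7.19 in control embryos, a difference of -1.77 ± 0.12. MFS9, a major facilitator superfamily transporter gene, had 4.42 and 3.81 in dimm embryos, against 5.67 and 5.57 in control embryos, a difference of -1.50 ± 0.16. mre11, a gene of DNA double-strand break repair, had 6.54 and 6.19 in dimm embryos, against 8.07 and 7.40 in control embryos, a difference of -1.37 ± 0.12. In these 3 the dimm arrays lay below the control arrays by more than the replicates of either genotype lay apart. CG9449 (-1.75 ± 0.22), CG30428 (-1.65 ± 0.09), CG4440 (-1.41 ± 0.07), the serpin gene Spn42De (-1.39 ± 0.07), CG13532 (-1.37 ± 0.08) and CG40298 (-1.28 ± 0.07) made up the rest.

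Neuropeptide processing and dense core vesicle genes stood at the higher end of the lists described here. Phm and CG1275 are also on the list of candidates linked to dimm, some of which came from these same embryos, so the lists overlap. Of 17 listed genes 15 had a single-gene probe set, and 12 of those were bright enough to test. In the fit of the 4 arrays 0 of the 12 passed, and 4 passed in the 8-array fit, all higher (2.51% of genes were higher in that fit). Both dimm arrays lay above both control arrays in 7 of the 12 (10.1% of genes) and below them in 0 (12.9% of genes), and the median difference was 0.67, against -0.03 over all tested probe sets. The median difference of the list was 0.71 in pair 1 and 0.59 in pair 2.

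The amidating enzymes act in sequence: PHM, encoded by Phm, hydroxylates the peptide and PAL then splits it. Phm had 10.99 and 11.20 in dimm embryos, against 9.74 and 10.20 in control embryos, a difference of 1.13 ± 0.10, 2.19-fold (8-array adjusted p = 0.0235 in limma). A second Phm probe set had 7.49 and 6.97 in dimm embryos, against 6.51 and 5.80 in control embryos, a difference of 1.08 ± 0.09 (8-array adjusted p = 0.0368 in limma). The 2 probe sets thus gave differences of like size.

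Pal2, one of a pair of lyase genes, had 6.60 and 7.78 in dimm embryos, against 4.66 and 4.62 in control embryos, a difference of 2.55 ± 0.36 (8-array adjusted p = 0.0338 in limma). It lay at 2.44 to 2.45 on all stage 14 arrays, so these added almost no spread to the 8-array fit. The control arrays were nearly equal and the dimm arrays were not. Of the dimm arrays the lower was replicate 1, the one with dim 5' ends of control transcripts, and the cause was not tested. The other lyase gene, Pal1, had 6.70 and 6.55 in dimm embryos, against 6.55 in both control arrays, a difference of 0.07 ± 0.08.

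For cleavage, amon encodes the prohormone convertase 2 of the fly and 7B2 its helper protein. 7B2 had 9.24 and 8.48 in dimm embryos, against 8.26 and 7.32 in control embryos, a difference of 1.07 ± 0.09 (8-array adjusted p = 0.0246 in limma). amon had 7.70 and 8.28 in dimm embryos, against 6.22 and 7.54 in control embryos, a difference of 1.11 ± 0.23 that did not pass in the 8-array fit either (adjusted p = 0.0612 in limma). The 2 control arrays of amon were more than 1 unit apart. Fur2, a furin-type convertase gene, differed by -0.04 ± 0.25.

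Among vesicle genes, CG1275, which encodes a cytochrome b561 family protein, had 8.55 and 8.88 in dimm embryos, against 7.56 and 7.95 in control embryos, a difference of 0.96 ± 0.07 (8-array adjusted p = 0.0235 in limma). Rph, which encodes the Rab effector Rabphilin, had 7.48 and 7.23 in dimm embryos, against 5.34 and 6.12 in control embryos, a difference of 1.63 ± 0.31 with an 8-array adjusted p of 0.0529. IA-2, for a membrane protein of dense core vesicles, differed by 0.37 ± 0.09, Rab3 by 0.20 ± 0.15, nemy by 0.04 ± 0.07, and Cadps, a factor of vesicle priming, by -0.36 ± 0.07. None of these 5 passed in either fit. svr, Sytalpha and Sytbeta lay below 2.5 on all arrays.

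**Figure D3:**
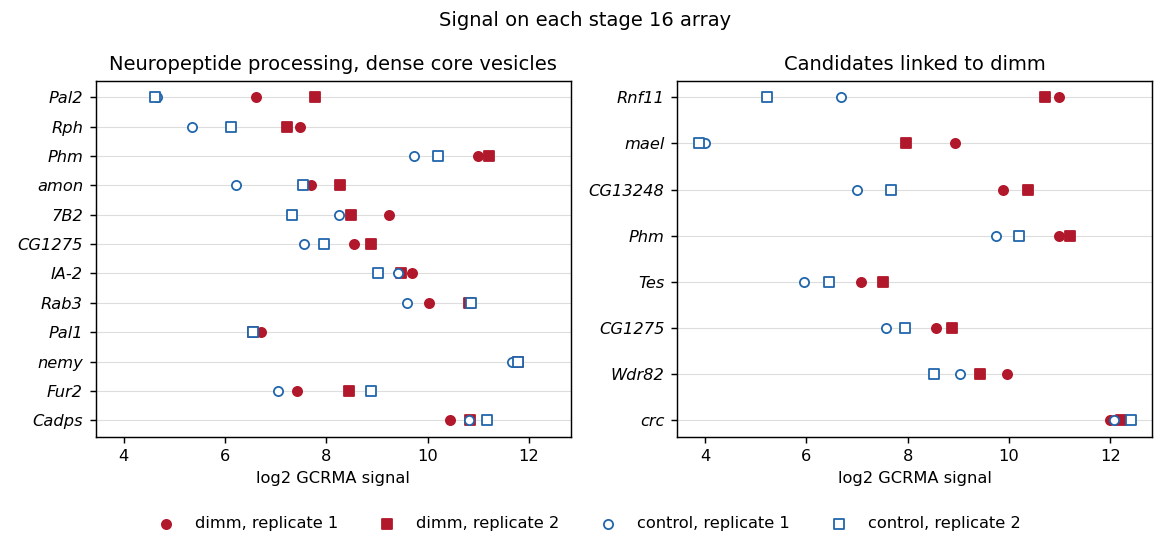
Log2 GCRMA signal of each stage 16 array (x axis) for the 12 tested neuropeptide processing and dense core vesicle genes (left) and the 8 candidates linked to dimm (right), with dimm arrays filled and control arrays open, replicate 1 as circles and replicate 2 as squares. The dimm arrays lie above both control arrays in 7 genes of each panel, and in the others the genotypes overlap. Phm and CG1275 are in both panels.

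The peptides themselves were mostly out of reach. Of 46 precursor genes 35 had a single-gene probe set, and 30 of those lay below the filter, 27 of them under 2.5 on all 4 arrays. Of the 5 tested, 0 passed in either fit, and the differences ran from -0.14 to 0.89 with a median of 0.24. CCHa2 had 7.33 and 7.37 in dimm embryos, against 7.06 and 5.86 in control embryos (0.89 ± 0.37), and Pdf, the precursor of a circadian neuropeptide, had 5.43 in both dimm arrays, against 5.43 and 5.51 in control embryos. Signals of this kind come from few cells, and in whole embryo RNA fewer cells of a type and less RNA per cell cannot be told apart.

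Earlier work took some of the 8 candidates linked to dimm from these same embryos. The list is therefore no independent evidence of its direction. Of the 8, 7 were higher in the 8-array fit (2.51% of genes were higher in that fit). Rnf11, a RING finger gene, had 10.98 and 10.71 in dimm embryos, against 6.68 and 5.22 in control embryos, a difference of 4.89 ± 0.35, 29.7-fold (8-array adjusted p = 0.0147 in limma). Its second probe set differed by 3.07 ± 0.24. The Rnf11 control arrays lay further apart than the dimm arrays, and both were far below them.

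Tes, which encodes a LIM domain protein, had 7.07 and 7.52 in dimm embryos, against 5.95 and 6.45 in control embryos (1.09 ± 0.07). Wdr82, which encodes a WD40 repeat protein, had 9.95 and 9.42 in dimm embryos, against 9.03 and 8.51 in control embryos (0.91 ± 0.07). The exception was crc, the gene for the stress factor ATF4, with 11.99 and 12.22 in dimm embryos, against 12.07 and 12.40 in control embryos (-0.13 ± 0.08, 8-array adjusted p = 0.304 in limma).

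Secretory pathway machinery differed little. Of 32 tested genes for translocation into the endoplasmic reticulum, COPII and COPI coats and Golgi structure, 0 passed in either fit, and the differences ran from -0.22 (loj) to 0.34 (Srp72), with a median of -0.04. Of 17 tested genes of the unfolded protein response and ATF4 targets, 2 were lower in the 8-array fit (2.48% of genes were lower) and 0 higher, with a median of -0.05. AsnS, the asparagine synthetase gene, had 4.19 and 3.84 in dimm embryos, against 5.46 and 5.11 in control embryos, a difference of -1.27 ± 0.07 (8-array adjusted p = 0.0235 in limma). aay, the phosphoserine phosphatase gene, had 9.97 and 10.13 in dimm embryos, against 10.84 and 10.88 in control embryos (-0.81 ± 0.08). Nmdmc, for a mitochondrial folate enzyme, differed by -0.87 ± 0.18 and did not pass. These 3 serve amino acid and folate metabolism; the chaperone gene Hsc70-3 of the endoplasmic reticulum differed by 0.01 ± 0.09.

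Few neuronal genes passed. Of 18 tested transmitter and synaptic vesicle genes, 1 was higher (2.51% of genes) and 1 lower (2.48% of genes) in the 8-array fit. The list had 15 negative and 3 positive differences, with a median of -0.11. Rim, an active zone scaffold gene, had 7.91 and 9.03 in dimm embryos, against 6.99 and 7.55 in control embryos (1.20 ± 0.18, 8-array adjusted p = 0.0415 in limma). ChT, a choline transporter gene, had 7.27 and 7.52 in dimm embryos, against 8.03 and 8.25 in control embryos (-0.75 ± 0.07, 8-array adjusted p = 0.0235 in limma). It lay at 2.82 to 2.85 on all stage 14 arrays, so these added almost no spread to the 8-array fit. The synapsin gene Syn differed by -0.65 ± 0.08 and the vesicular acetylcholine transporter gene VAChT by -0.55 ± 0.09, and neither passed.

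Of 17 pan-neuronal and ion channel genes, 1 was higher (2.51% of genes) and 1 lower (2.48% of genes) in the 8-array fit, with a median of -0.02. cpo, an RNA-binding protein gene of the peripheral nervous system, had 12.17 and 12.67 in dimm embryos, against 11.39 and 11.89 in control embryos (0.78 ± 0.07), while its second probe set had 10.48 and 10.42 in dimm embryos, against 10.27 and 10.56 in control embryos (0.03 ± 0.12). The 2 cpo probe sets thus disagreed. nAChRbeta1, a nicotinic receptor subunit gene, had 11.12 and 11.04 in dimm embryos, against 11.72 and 11.58 in control embryos (-0.57 ± 0.07), and tipE, a sodium channel subunit gene, differed by 0.68 ± 0.17 and did not pass. Among 11 tested hnRNP and neuronal RNA-binding protein genes, Hrb87F and cpo were higher in the 8-array fit and 0 were lower, with a median of 0.01. Hrb98DE, a close relative of Hrb87F, had 13.08 and 13.39 in dimm embryos, against 13.25 and 13.53 in control embryos.

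Of 26 tested neuronal identity transcription factors, dimm was higher (2.51% of genes) and hb lower (2.48% of genes) in the 8-array fit, with a median of -0.03. hb, the gene of the temporal factor Hunchback, had 8.10 and 8.39 in dimm embryos, against 8.80 and 9.08 in control embryos (-0.70 ± 0.07, 8-array adjusted p = 0.0246 in limma). ap and eya, which act with dimm in peptidergic neurons, differed by -0.49 ± 0.20 and -0.02 ± 0.07 and did not pass.

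Among precursors and glia, 1 gene of each list passed in the 8-array fit, where 2.51% of all genes were higher and 2.48% lower. repo, the homeobox gene of glial differentiation, had 9.53 and 9.26 in dimm embryos, against 10.28 and 10.31 in control embryos, a difference of -0.90 ± 0.11 (8-array adjusted p = 0.0306 in limma). It was the only one of 11 tested glial markers to pass, and their median was -0.08; moody, a receptor gene of the blood-brain barrier, differed by -0.40 ± 0.07. The mean signal of the 11 was 9.80 and 9.91 in dimm embryos, against 9.90 and 10.08 in control embryos. Of 13 neuroblast markers 1 was higher, pros, a homeobox gene of neural differentiation, with 10.11 and 9.89 in dimm embryos, against 9.48 and 9.44 in control embryos (0.54 ± 0.09, 8-array adjusted p = 0.0419). The neuroblast list had 10 negative differences and the lowest median of the 26 lists, -0.15, with wor at -0.38 ± 0.07 and mira at -0.36 ± 0.08, neither of which passed.

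**Figure D4:**
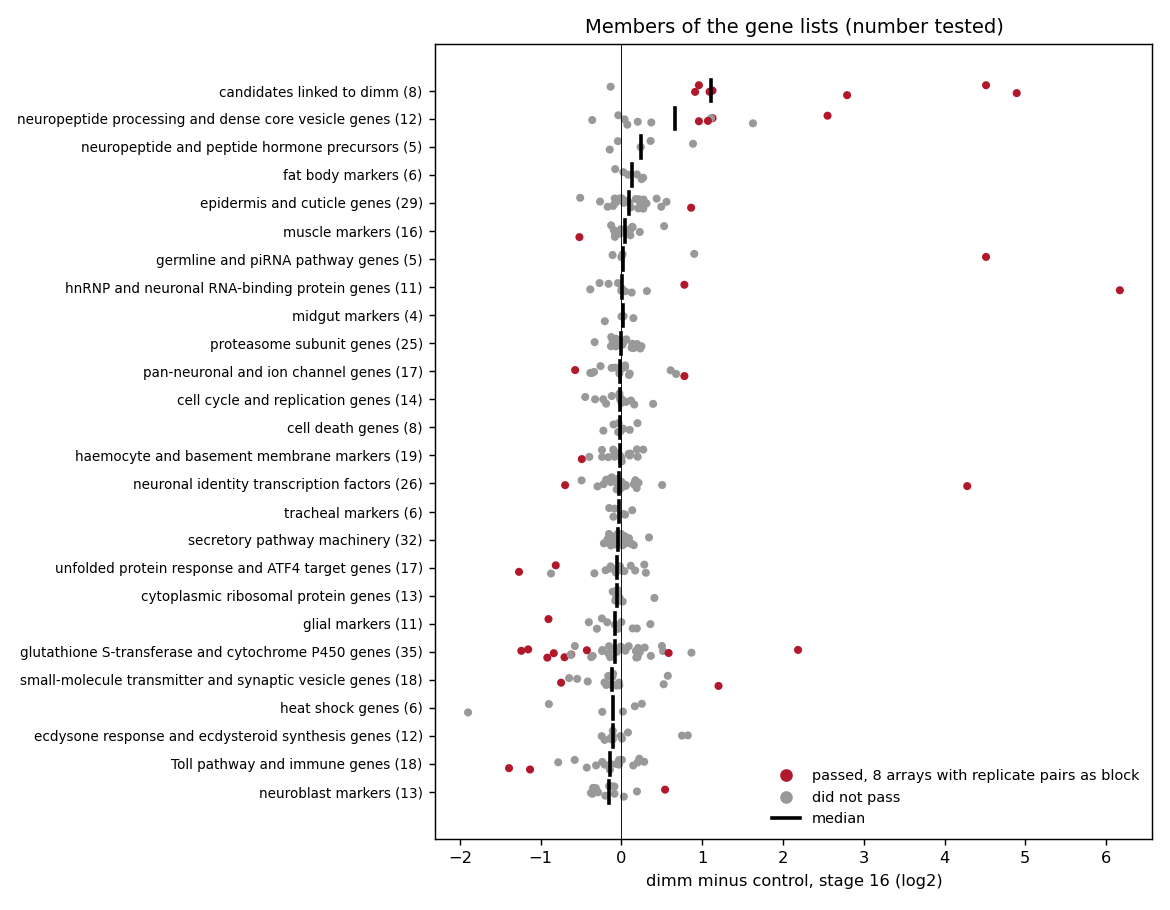
Log2 difference between dimm and control embryos at stage 16 (x axis) for each tested member of the 26 gene lists, ordered by median (black bars), with the number tested in brackets; red points passed in the 8-array fit. The candidates linked to dimm and the neuropeptide processing list have medians of 1.11 and 0.67, and the other medians lie between -0.15 and 0.24. Phm and CG1275 are on both of the lists with the highest medians.

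Detoxification genes had calls in both directions. Of 35 tested glutathione S-transferase and cytochrome P450 genes on the list, 2 were higher (2.51% of genes) and 7 lower (2.48% of genes) in the 8-array fit, with a median of -0.08, and without the replicate 1 arrays 2 were higher and 1 lower. Cyp6a13 had 5.09 and 5.11 in dimm embryos, against 6.44 and 6.23 in control embryos (-1.24 ± 0.10), and GstE1 had 9.74 and 9.90 in dimm embryos, against 10.99 and 10.96 in control embryos (-1.15 ± 0.09). The other listed genes that were lower were GstE5, Cyp12a4, Cyp9f2, GstT1 and Cyp28a5, from -0.92 to -0.43, and Cyp49a1 joined Cyp304a1 as higher (0.59 ± 0.07). Outside the list, and named after their values were seen, the P450 genes Cyp9c1 differed by 1.80 ± 0.16 and Cyp6a16 by -1.41 ± 0.19, and both passed in the 8-array fit (adjusted p = 0.0235 and 0.0421 in limma).

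Of 18 tested Toll pathway and immune genes 2 were lower in the 8-array fit (2.48% of genes) and 0 without the replicate 1 arrays, with a median of -0.14. SPE, the protease that activates the Toll ligand, had 9.08 and 8.54 in dimm embryos, against 10.01 and 9.87 in control embryos (-1.13 ± 0.13, 8-array adjusted p = 0.0331 in limma). Spn42De had 8.88 and 8.42 in dimm embryos, against 10.28 and 9.79 in control embryos (8-array adjusted p = 0.0235). The antimicrobial peptide gene Mtk had 7.22 and 6.91 in dimm embryos, against 8.73 and 6.97 in control embryos, so control replicate 1 set its difference of -0.78 ± 0.43, which did not pass.

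Hsp26 of the heat shock genes also turned on that array, and Hsp27 did in part. Hsp26 had 5.39 and 5.29 in dimm embryos, against 9.28 and 5.19 in control embryos, and Hsp27 had 9.85 and 9.51 in dimm embryos, against 11.27 and 9.88 in control embryos. The differences of -1.90 ± 1.17 and -0.90 ± 0.31 became 0.15 and -0.21 without control replicate 1, which also ends the pairing. Within pairs Hsp27 differed by -1.42 in pair 1 and -0.38 in pair 2, and its arrays did not overlap. None of the 6 tested heat shock genes passed in either fit (median -0.11).

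Markers of other tissues mostly kept level. For comparison, 2.51% of all genes were higher and 2.48% lower in the 8-array fit. Of 16 muscle markers 1 was lower in the 8-array fit (Mlc2, -0.52 ± 0.07; median 0.05), of 19 haemocyte and basement membrane markers 1 was lower (the phagocytosis receptor gene NimC4, -0.49 ± 0.07; median -0.02), and of 29 epidermis and cuticle genes 1 was higher (the cuticle protein gene Cpr49Ac, 0.86 ± 0.13; median 0.10). Mlc2 had overlapping groups, with 12.10 and 12.81 in dimm embryos, against 12.63 and 13.32 in control embryos. Of 5 tested germline and piRNA pathway genes mael was higher, while 18 others of that list lay below the filter, 15 of them under 2.5 on all arrays. No member passed in either fit among 6 fat body, 4 midgut and 6 tracheal markers (medians 0.14, 0.01 and -0.03), 12 ecdysone genes (-0.11), 14 cell cycle genes (-0.02), 8 cell death genes (-0.02), 13 ribosomal protein genes (-0.05) and 25 proteasome genes (0.00). In the ecdysone list ftz-f1 differed by 0.82 ± 0.19 and Eip78C by 0.75 ± 0.44, and neither was the same in both pairs; the second ftz-f1 probe set differed by -0.02 ± 0.07. Beside these, Hen1, a small RNA methyltransferase gene of the germline list, differed by 0.90 ± 0.29, the muscle gene Mlp60A by 0.53 ± 0.08, the cuticle gene TwdlE by 0.56 ± 0.10 and the blood cell factor gene ush by -0.40 ± 0.08, none of which passed.

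In 7 further lists where no member passed, the differences were read from the brightest probe set of each gene. They were 0.27 ± 0.12 for svp and 0.25 ± 0.07 for Desat1 in the fat body list, -0.20 ± 0.09 for mex1 and 0.15 ± 0.09 for LManII in the midgut list, and -0.15 ± 0.14 for sinu and 0.13 ± 0.08 for pyd in the tracheal list. The other probe sets of pyd differed by 0.50 ± 0.11, with arrays that did not overlap, and by 0.36 ± 0.15, and neither passed. The cyclin gene CycB differed by -0.45 ± 0.16, the kinase gene Cdk2 by 0.39 ± 0.09, the TNF gene egr by -0.22 ± 0.07 and the Bcl-2 family gene Debcl by 0.20 ± 0.09. Among ribosomal protein genes RpL27 differed by 0.41 ± 0.10 and RpL40 by -0.11 ± 0.07, and among proteasome genes Rpn12 by -0.33 ± 0.07 and Rpn1 by 0.25 ± 0.07.

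The same genotypes at stage 14 show which differences were already present. In the 8-array fit 148 probe sets passed at stage 14, and 98 of them were among the 390 of stage 16 (66.2% of the first and 25.1% of the second), 97 with the same sign. Over all probe sets 2.48% were higher and 2.58% lower at stage 16. Both stages share 1 spread estimate for each probe set in this fit, so the calls are not independent and their overlap is not a separate test. Hrb87F differed by 5.79 at stage 14, GILT3 by 5.82, Rnf11 by 5.12, kek5 by 2.71 and Phm by 0.98, all close to their stage 16 values and all past the threshold at stage 14 (adjusted p from 0.00148 to 0.0321 in limma). TM4SF differed by -1.21 and CG13248 by 4.56, and in both the difference between the stages did not pass (adjusted p = 0.303 and 0.129).

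**Figure D5:**
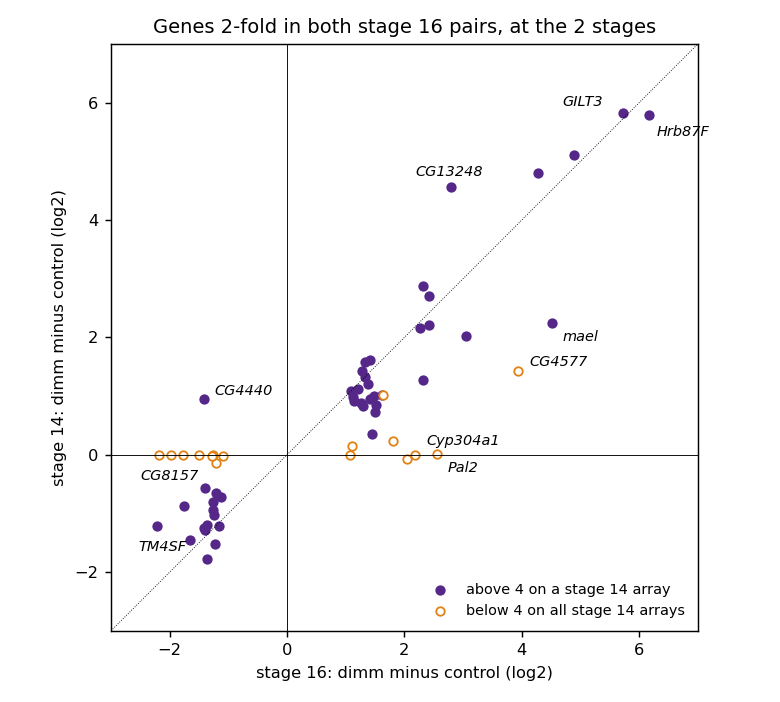
Log2 difference between dimm and control embryos at stage 16 (x axis) and at stage 14 (y axis) for the 61 genes that differed at least 2-fold in both stage 16 pairs; open points lay below 4 on all 4 stage 14 arrays, and the dotted line marks equal differences. Of the 45 genes above 4 on a stage 14 array 44 differed in the same direction there in both pairs, and CG4440 did not. How often the other tested genes did so was not counted.

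At stage 14, 8 of the higher and 8 of the lower genes among the 61 were dark, below 4 on all arrays of both genotypes. For those at background the 8-array fit took little spread from stage 14. CG8157 was at 2.20 on all 4 stage 14 arrays, and CG8160, Npc2e and MFS9 lay at 2.18 to 2.23 in both genotypes, before control signals of 5.57 to 9.99 at stage 16. Pal2 and Cyp304a1 were likewise near background at stage 14, at 2.44 to 2.45 and 2.18 to 2.19, and differed by 2.55 and 2.19 at stage 16. CG4577 had 3.98 and 3.22 in dimm embryos at stage 14, against 2.18 in both control arrays.

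The difference between the stages had an adjusted p of 0.0307 in limma for 2 probe sets, CG8157 and CG4440, where 931 had an unadjusted p under 0.05. For CG8157 it only restates the stage 16 difference, since all 4 stage 14 arrays lay at background, and it shows no change of effect. CG4440 was higher in dimm embryos at stage 14, with 11.36 and 11.45 in dimm embryos against 10.42 and 10.50 in control embryos (0.95 ± 0.06). At stage 16 it was lower, with 7.15 and 6.88 in dimm embryos, against 8.53 and 8.33 in control embryos. Both stages passed in the 8-array fit (adjusted p = 0.0223 and 0.0123), and its signal was lower at stage 16 than at stage 14 in both genotypes. With no replicate block 0 probe sets passed for the difference between stages.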

How the data were processed

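Total RNA of dechorionated embryos was labelled with biotin and hybridised, 2 arrays for each genotype at each stage. The authors deposited log2 values, and the submitters' processing notes name R 2.12.1, GCRMA 2.22.0 and limma, the last with no version. GCRMA corrects background by probe sequence and normalises arrays to a common distribution, so a global shift would not be seen. No source used here says if the 8 arrays were normalised as one set; their lowest value was 2.186 at stage 16 and 2.182 at stage 14.

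From these values limma 3.58.1 in R 4.3.3 fitted the 4 stage 16 arrays with genotype and replicate number as a block (1 residual degree of freedom), default eBayes, Benjamini-Hochberg over 7712 probe sets and a threshold of 0.05. The pairing comes from the replicate numbers in the labels and was checked on the arrays: same-numbered deviations correlated at 0.915 at stage 16 and 0.188 at stage 14. The second fit took all 8 arrays with the pairs of each stage as a block (2 residual degrees of freedom) and also gave the difference between stages. Errors are standard errors of the fit of the 4 arrays, save at stage 14 and between stages, where they come from the second fit. On simulated data of 7712 probe sets the fit of the 4 arrays found 31 of 100 simulated 1-unit differences and 89 of 100 simulated 2-unit differences (log2), with 7 false calls among 127. The simulated noise was normal and drawn from the spread that the same fit had estimated. These shares therefore hold for data that follow the model, and do not give the share found in the real arrays. There, Rnf11 (4.89) and mael (4.51) did not pass in that fit. No depth applies to arrays; their number limits the precision.

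Where several single-gene probe sets name a gene, the brightest on average over the 4 arrays stands for it. The platform annotation names 1 gene for 13646 of 18769 probe sets, several for 402 and none for 4721; 103 single-gene probe sets were not matched in RefSeq, Release 6 plus ISO1 MT, used for chromosomes and neighbours only. Named genes were dimm, elav, Phm, CG1275, CG13248, mael, Rnf11, Tes and crc, the 12 largest differences each way with arrays not overlapping, a group mean above 5 and, where not past the threshold, pair differences within 1 unit, and members of 26 gene lists: up to 4 that passed, or the 2 largest. Further list members were named after their values were seen, as were those passing in the second fit. The members, lists and fits were chosen with earlier results of these data known. Lists were described by counts and medians, with no list test. Alternatives were the fits with no replicate block, with other arrays, filters, floors, centring and moderation, and leaving out arrays. No sequences are shown.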

Additional observations from a re-analysis of the deposited data

Results flagged for a closer look

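The test of the difference between stages picked out CG4440 and CG8157. For CG8157 the effect at stage 16 minus that at stage 14 was -2.19 ± 0.09 (SE, log2, adjusted p = 0.0307 in limma), but all 4 arrays of stage 14 lay at background, so the value restates the stage 16 difference and does not show that the effect differed. For CG4440 it was -2.36 ± 0.09 (adjusted p = 0.0307 in limma), with a higher signal in dimm embryos at stage 14 and a lower one at stage 16, in both pairs of each stage. Its cause was not tested.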

How the results depend on the processing

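The count of probe sets past the threshold at stage 16 depended on the fit: 3 with the replicate block on 4 arrays, against 2 with no replicate block, 390 with all 8 arrays and the replicate block in each stage, 28 with all 8 arrays and no replicate block, and 828 with the replicate block at stage 16 alone. It was 8 with each array centred on its median, 9 with the filter at 6, and 0 with no filter on low values (1273 at an unadjusted p under 0.05), where probe sets fixed at background entered the spread estimate. It was 3 with signals below 4 raised to 4 and with trend and robust moderation. Leaving out arrays gave 0 to 604: 0 without any single array (93 to 170 at an unadjusted p under 0.05), 458 without the replicate 1 pair and 604 without the replicate 2 pair, whose fits take the spread from stage 14. The dimm difference of 4.28 passed with all 8 arrays and the replicate block (adjusted p = 0.045) or with that block at stage 16 alone (adjusted p = 0.0173 in limma), and ran from 2.90 to 5.66 with arrays left out. The 2 stage differences became 0 with no replicate block, an alternative chosen after seeing the data. Directions reversed on leaving out arrays for some genes that did not pass, whose values then ran over these ranges: crc -0.30 to 0.036, elav -0.012 to 0.10, Nplp1 -0.21 to 0.93, Hsp26 -3.94 to 0.15, svp -0.030 to 0.57, Desat1 -0.079 to 0.58, mex1 -0.80 to 0.39, sinu -0.50 to 0.20, pyd -0.41 to 0.68, ftz-f1 -0.29 to 1.94 and Eip78C -0.49 to 1.99. The cause was not tested. No direction reversed under the other alternatives run. The 2 arrays a group limit all of these values, and signals near 2.186 are background.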

Other observations

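Among the other genes at least 2-fold higher in both pairs, 4 are given here, named after their values were seen. HPS1, for a subunit of the BLOC-3 complex of lysosome-related organelles, had 6.11 and 6.42 in dimm embryos, against 4.82 and 4.67 in control embryos (1.52 ± 0.15, 8-array adjusted p = 0.0235 in limma). PICK1, for a BAR and PDZ domain protein, had 6.58 and 6.49 in dimm embryos, against 5.27 in both control arrays (1.26 ± 0.08, 8-array adjusted p = 0.0265). Nep3, a neprilysin-type metallopeptidase gene, had 5.02 and 7.89 in dimm embryos, against 3.59 and 6.32 in control embryos (1.50 ± 0.08, 8-array adjusted p = 0.0464), so its replicates lay further apart than its genotypes. eIF4E3, for a cap-binding translation factor, had 7.41 and 6.92 in dimm embryos, against 5.58 and 3.90 in control embryos (2.42 ± 0.35), and did not pass (8-array adjusted p = 0.0529).

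The share of tested genes that passed in the 8-array fit was 2.58% on the X chromosome, against 4.9% on 2L, 6.26% on 2R, 5.37% on 3L, 5.26% on 3R and 5.66% on the fourth chromosome, with no test of the difference. Among genes at least 2-fold different in both pairs, CG8157 and CG8160 on 2R and CG14419 and CG3588 on X were neighbours among the tested genes, each pair lower in dimm embryos. CG14419 had 9.95 and 9.96 in dimm embryos, against 11.00 and 11.17 in control embryos, and CG3588 had 9.57 and 9.20 in dimm embryos, against 10.70 and 10.48 in control embryos.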
